A study of Arabidopsis thaliana with 12 samples.

Results

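A set of 40 genes had less RNA in sfps-2 than in wild type seedlings both in the dark and after red light. The members were chosen on the expression tables: a gene had to be tested by the authors in both genotype comparisons, reach at least 2 FPKM (fragments scaled to exon length and library size) in wild type in both, and have an sfps-2 level of 0.5 of wild type or less in both. Of 33557 genes listed, 20420 were tested in both comparisons and 16493 also reached 2 FPKM. SFPS itself was left out, so the 40 members are 0.243% of 16492 genes. The ratio alone was met by 105 of the genes in the dark and by 234 after red light. Because the genotype contrast chose the members, their differences in level between sfps-2 and wild type are given as a description, with no test beyond the authors' deposited q. Retention of their introns was tested between genotypes, but that test is not independent of the choice of members.

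The seedlings were Arabidopsis thaliana of the Col-0 background, either wild type or sfps-2, a knockout of SFPS (AT1G30480) in Col-0. They were 4 days old, grown in the dark on medium without sucrose after a short white light exposure that started germination, and then kept for 3 h in the dark or under continuous red light (7 umol m-2 s-1). Each of the 4 groups has 3 libraries of whole seedlings, prepared with a stranded kit after ribosomal RNA was removed. The labels do not say that the 3 were grown as separate cultures, so the spread between libraries may be technical.

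SFPS is an RNA-binding splicing factor that acts with the phytochromes, the red light receptors that end growth in darkness and start greening. Splicing removes introns from a new transcript, and an intron that stays in can change the protein or lead to decay of the RNA. The members span several kinds of genes. FLC encodes a MADS-box repressor of flowering, EBP an ethylene response factor and ACS11 an enzyme of ethylene synthesis, PA2 a secreted peroxidase, and AGP13 and FLA13 arabinogalactan proteins of the cell surface. HEI10 acts in meiotic crossovers, KCS12 belongs to the enzymes that elongate very long fatty acids, and several members encode no protein.

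Expression is known as 1 FPKM per group, so no error between libraries stands beside an FPKM, and the total depth per library is unknown. SFPS was at 8.04 FPKM in wild type and 1.83 in sfps-2 in the dark, and at 7.90 and 1.93 after red light. In 381 splicing bins with reads given for each of the 12 libraries, the poorest library had 180711 junction reads and the richest 287653, 1.59 times as many. A splicing bin was listed between genotypes after red light for 93 genes, members left out, that light raised in both genotypes. With their junction reads scaled by the 381 bins, the third red light library of sfps-2 was the lowest of its group in 72. The second red light library of wild type was the lowest of its group in 58. Among 8 genes listed as a check of the light treatment, 6 were called higher and 2 lower in each genotype. Members are whole-seedling values, in which fewer cells of a type and less RNA per cell cannot be told apart. The 15 root cell markers summed to 3871 FPKM in wild type and 2945 in sfps-2 in the dark, and to 3815 and 3083 after red light. Of these 15, 0 were called in the dark, and 5 were called higher and 0 lower in sfps-2 after red light, with median log2 changes of -0.21 and -0.02. The 12 seed storage markers summed to 96.6 and 617 FPKM in the dark and to 157 and 779 after red light. No marker of either list was at 0 in any group, none is a member, and their part in the members' levels was not tested.

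Pairs of members share sequence, which bears on how reads were assigned to them. MRD1, named for its lowered RNA in the mto1 mutant of methionine metabolism, and AT5G03090, annotated as an Mto 1 responding down protein, were identical at 242 of 271 aligned bases (89.3%). The noncoding RNA genes AT4G04223 and AT5G38005 were identical at 91.8% of 501 aligned bases. Stretches of 100 bases from each pair are shown because the letters that differ, in capitals, are what a short read needs to be placed. The MRD1 stretch lies in the coding sequence on chr1:19963774-19963873, minus strand, and its partner on chr5:725688-725787, plus strand. The noncoding stretches lie on chr4:2036662-2036761 and chr5:15155185-15155284, both plus strand, all read 5′ to 3′ from RefSeq TAIR10.1.
MRD1: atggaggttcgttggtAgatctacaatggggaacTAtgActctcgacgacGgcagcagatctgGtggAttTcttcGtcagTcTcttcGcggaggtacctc
AT5G03090: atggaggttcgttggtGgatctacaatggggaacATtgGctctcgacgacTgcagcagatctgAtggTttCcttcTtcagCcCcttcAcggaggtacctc
AT4G04223: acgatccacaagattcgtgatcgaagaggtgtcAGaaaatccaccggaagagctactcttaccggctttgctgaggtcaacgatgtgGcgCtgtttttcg
AT5G38005: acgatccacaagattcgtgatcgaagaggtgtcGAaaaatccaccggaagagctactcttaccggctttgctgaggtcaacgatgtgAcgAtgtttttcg

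The MRD1 pair differs at 12 of the 100 bases and the noncoding pair at 4. AT3G56210, an ARM repeat protein gene, shares 99.4% of 349 bases with AT4G04223 and 95.5% of 265 bases with AT5G38005, in its 3′ UTR. The peroxidase genes AT2G18150 and AT4G36430 are 82.3% identical over 1079 bases. These percentages leave out gaps. In all, 5 pairs of members are alike. By BLAST, which counts gaps, 4 members (AT3G56210, AT4G01593, AT4G04223 and AT4G08112) have a stretch of at least 100 bases that is at least 95% identical to another gene. AT5G38005 is not among them, since its match to AT3G56210 is 92.3% over 274 bases by that measure. Levels of these genes are uncertain, since the sources used here do not say how reads with several matches were counted.

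The 40 members held between 8.03% and 48.9% of the wild type level in the dark (median 38.8%) and between 8.89% and 48.5% after red light (median 40.8%). Wild type levels ran from 2.55 to 641 FPKM in the dark, with a median of 14, and from 2.1 to 477 FPKM after red light, with a median of 12.9. By the authors' q under 0.05 and a fold of at least 1.5, 35 of 40 members were called lower in the dark, where 1.99% of all tested genes were, and 34 of 40 after red light, where 3.23% were. None was called higher, a call that 5.22% of all tested genes had in the dark and 3.28% after red light. In both conditions 33 were called lower, in neither 4. These shares follow from the choice of members. On the log2 scale, the red light ratio minus the dark ratio lay within 0.5 for 36 of 40 members. It lay above that in 2 and below in 2, with a range of -1.46 to 0.78. Both ratios had to be 0.5 or less, so likeness between the conditions also follows in part from the choice. The share of all tested genes within 0.5 was not computed.

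**Figure D1:**
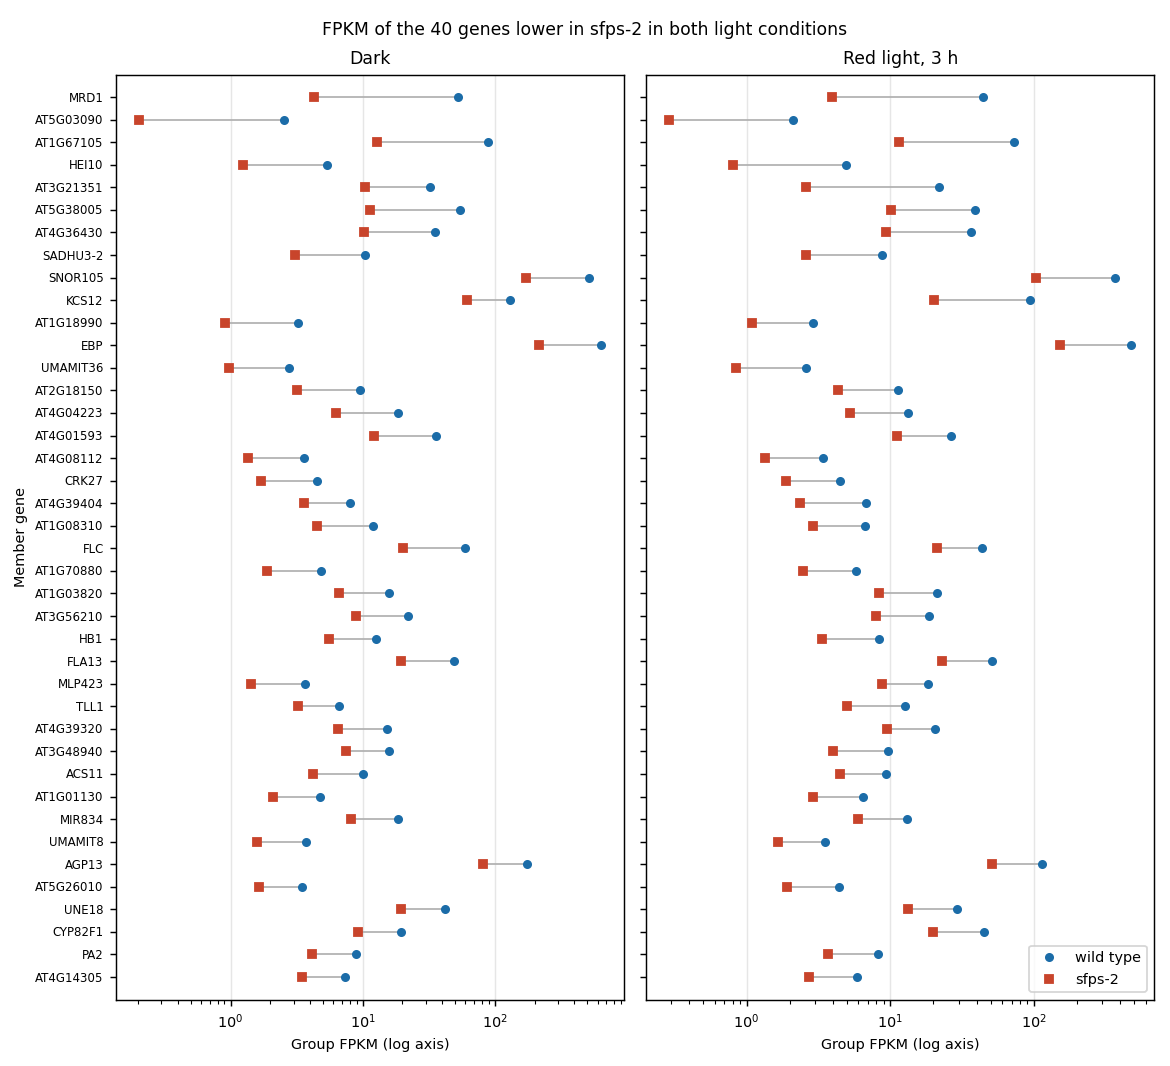
Group FPKM of the 40 members on a log axis, 1 row per gene, in the dark (left) and after 3 h of red light (right); circles are wild type, squares sfps-2, and each is the authors' single value for 3 libraries. The sfps-2 square lies left of the wild type circle in every row, as the choice of members requires, and in the dark the gap is widest in AT5G03090 (8.03% of wild type) and MRD1 (8.08%), after red light in MRD1 (8.89%) and AT3G21351 (11.8%).

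MRD1 had the lowest sfps-2 share over both conditions. In the dark wild type held 53.1 FPKM and sfps-2 4.29, and after red light the levels were 44.0 and 3.91. AT5G03090, its partner in sequence, was at 2.55 and 0.205 FPKM in the dark and at 2.1 and 0.291 after red light. Both genes were lower in sfps-2, as the choice of members requires. The wild type levels of AT5G03090 were the lowest of all members, close to the minimum of 2 FPKM. It was not called by the authors' deposited table (q 0.594 in the dark and 0.415 after red light).

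HEI10, a RING-type protein of meiotic crossovers, lies antisense to MRD1, with 1446 bp of overlap, and the authors' locus holds both. In the dark its level was 5.34 FPKM in wild type against 1.24 in sfps-2, and after red light 4.91 against 0.809. The authors' deposited table called it in the dark (q 0.0412) and not after red light (q 0.387). The next gene of that locus, MUM4, was at 32.8 and 35.2 FPKM in the dark and at 36.1 and 37.7 after red light, so it did not share the low sfps-2 level. The libraries were stranded, but the sources used here do not say whether counting used the strand, so reads of HEI10 and MRD1 cannot be told apart in their shared part.

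Genes that encode no protein made up 9 of the 40 members, 22.5%, against 2.39% of the other 16452 genes. They are 4 noncoding RNAs, 1 long noncoding RNA, 2 pseudogenes, 1 small nucleolar RNA and 1 microRNA precursor. Members also had a median of 3 exons, against 5, and 22.5% had a single exon, against 12.9%. Of the 33 members called in both conditions, 6 encode no protein. Short genes are measured less surely by FPKM, and SNOR105, 107 bp long, is the shortest member.

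AT1G67105, a noncoding RNA gene of 1 exon, was at 89.4 FPKM in wild type and 12.8 in sfps-2 in the dark, and at 72.5 and 11.5 after red light. AT5G38005 was at 54.2 and 11.3 FPKM in the dark and at 38.9 and 10.1 after red light. AT4G04223, its relative, was at 18.7 and 6.27 FPKM in the dark and at 13.2 and 5.29 after red light. SNOR105, a guide RNA of the nucleolus, was at 518 and 173 FPKM in the dark and at 365 and 103 after red light, and was not called by the authors' deposited table (q 0.443 and 0.483). It is the only member within 1 Mb of SFPS, at 638 kb. SADHU3-2, of a retroposon family, was at 10.3 and 3.08 FPKM in the dark and at 8.83 and 2.58 after red light. MIR834, which lies within AT5G08230, was at 18.6 and 8.22 FPKM in the dark and at 13.2 and 5.99 after red light, and q in the authors' deposited table was 0.872 and 0.937. AT4G01593 lies antisense to AT4G01595, which was at 0.121 FPKM or less in every group.

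Of the transcription factor genes, FLC was at 59.9 FPKM in wild type and 20.3 in sfps-2 in the dark, and at 43.6 and 21.1 after red light. An antisense long noncoding RNA, AT5G01675, covers the gene. In a list of 16 genes of the FLC clade and its regulators and targets, chosen after the members were known, 14 were tested and FLC was the only one called lower in the dark. After red light SVP, another MADS-box repressor, was called lower (8.78 to 4.53 FPKM) beside FLC, and SOC1, a gene that both repress, was called higher (8.44 to 16.3 FPKM). In the dark 0 of the 14, SOC1 included, were called higher, and a link between these changes was not tested.

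EBP, the most abundant member, was at 641 FPKM in wild type and 215 in sfps-2 in the dark, and at 477 and 152 after red light. It belongs to the group VII ethylene response factors, which act under low oxygen, as does HB1, a hemoglobin, at 12.7 and 5.59 FPKM in the dark and 8.37 and 3.36 after red light. In a list of 12 such genes, also chosen with the members known, 3 of 11 tested were lower and 0 higher in the dark. These were EBP, HB1 and the sucrose synthase gene SUS4. After red light 2 of 12 were lower, again the members EBP and HB1, and 1 was higher. The lower counts thus rest mostly on genes chosen for being lower. Of all tested genes, 1.99% were lower in the dark and 3.23% after red light. The close relatives of EBP were not called: RAP2.12 was at 261 and 234 FPKM in the dark, and RAP2.2 at 216 and 171. ACS11 was at 10.1 and 4.18 FPKM in the dark and at 9.35 and 4.46 after red light. Of 11 ACC synthase and oxidase genes, a list also chosen with the members known, 10 were tested in the dark, where ACS11 was the only one lower and ACS2 was higher. After red light 3 of 11 were higher (ACS4, ACS8 and ACS9) and 2 lower (ACS7 and ACS11).

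Of the cell wall and surface genes, AT4G36430, a peroxidase, was at 35.2 FPKM in wild type and 10.3 in sfps-2 in the dark, and at 36.4 and 9.39 after red light. AT2G18150, the similar peroxidase gene, was at 9.59 and 3.17 FPKM in the dark and at 11.3 and 4.33 after red light. PA2 was at 8.88 and 4.14 FPKM in the dark and at 8.18 and 3.72 after red light. Peroxidases did not move one way as a family: of 59 tested genes with a peroxidase product, 11 were higher and 6 lower in the dark, and 12 higher and 14 lower after red light. Of all tested genes, 5.22% were higher and 1.99% lower in the dark, and 3.28% and 3.23% after red light. The family was chosen with the members known, and its lower counts include the 3 members named here. AGP13 was at 177 and 81.0 FPKM in the dark and at 115 and 50.9 after red light. FLA13 was at 48.7 and 19.5 FPKM in the dark and at 51.5 and 23.1 after red light. KCS12 was at 131 and 61.2 FPKM in the dark and at 93.4 and 20.3 after red light, and AT3G21351, an uncharacterized protein gene, was at 32.1 and 10.4 FPKM and at 21.8 and 2.58. On the log2 scale the red light ratio minus the dark ratio was -1.10 in KCS12 and -1.46 in AT3G21351, the only members below -0.5. The ratio was lower after red light than in the dark in 19 members, these 2 included, and higher in 21.

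None of the 40 members is in the lists of clock, light signalling, auxin response, splicing regulator, or defence and jasmonate genes, and PA2 is the only one in the peroxidase list. Members close to the limit were AT3G48940 (larger ratio 0.480), FLC (0.485) and TLL1 (0.489). Just outside lay AT5G56370 (0.505), AT1G68880 (0.508) and AT5G46090 (0.510).

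The red light contrasts were not used to choose the members and ask whether these genes respond to light in each genotype. In wild type 3 of 40 members rose and 3 fell, by the authors' q and a fold of 1.5, where 14.9% of all tested genes rose and 5.85% fell. In sfps-2 3 of 39 members tested rose and 5 fell, where 12.4% of all tested genes rose and 8.97% fell. The median log2 change of members was -0.21 in wild type, against 0.01 for all tested genes, and -0.15 in sfps-2, against -0.01.

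**Figure D2:**
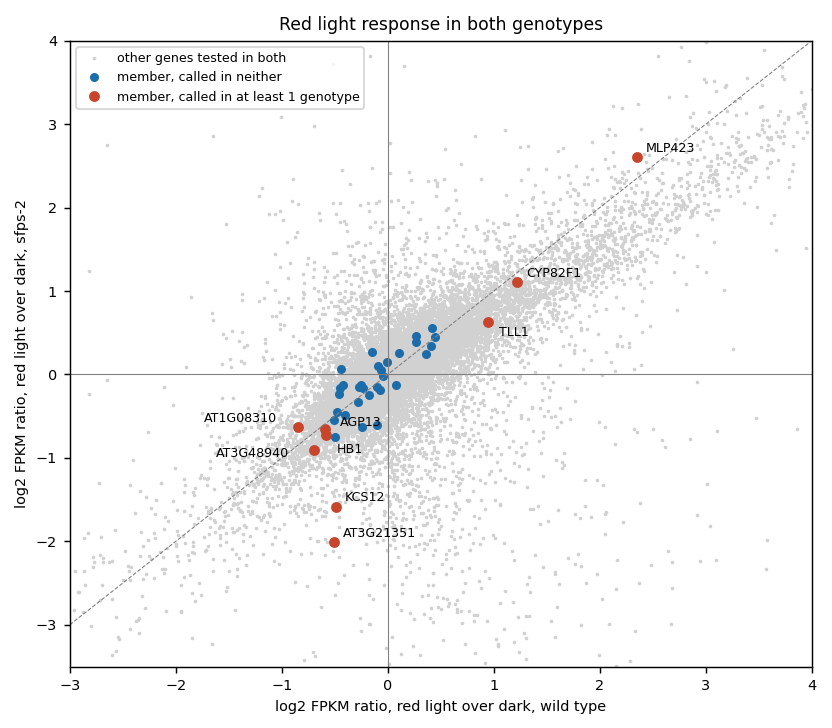
The log2 ratio of red light over dark FPKM in wild type (horizontal) and sfps-2 (vertical) for 39 members tested in both and for other genes tested in both (grey; 201 of 20420 genes lie outside the axes). The dashed line marks equal ratios; MLP423, CYP82F1 and TLL1 lie at the upper right, and KCS12 and AT3G21351 lie below the line with the lowest sfps-2 values among members.

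MLP423, a major latex protein-like gene, was at 3.68 FPKM in the dark and 18.4 after red light in wild type, and at 1.44 and 8.70 in sfps-2. It rose by 2.35 on the log2 scale in wild type and by 2.61 in sfps-2 (q 2.92e-04 and 3.82e-04 in the authors' deposited table). CYP82F1, a cytochrome P450 gene, rose from 19.6 to 45.0 FPKM in wild type and from 9.26 to 19.9 in sfps-2, log2 changes of 1.22 and 1.11. TLL1, a lipase-like gene, rose from 6.66 to 12.7 FPKM in wild type and from 3.26 to 5.00 in sfps-2, log2 changes of 0.95 and 0.63 (q 2.92e-04 and 0.0412 in the authors' deposited table). The same 3 genes rose in both genotypes.

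AGP13 fell by 0.59 on the log2 scale in wild type and by 0.66 in sfps-2, and AT3G48940, a remorin gene, fell by 0.70 and 0.90 (in the authors' deposited table q was 0.00263 in wild type and 0.0186 in sfps-2 for the latter). AT1G08310, an alpha/beta hydrolase gene that shares its locus with neighbours, fell by 0.84 in wild type (q 0.00503 in the authors' deposited table) and had a log2 change of -0.63 in sfps-2 (q 0.358). Called only in sfps-2 were AT3G21351, with a log2 change of -2.01, KCS12, with -1.58, and HB1, with -0.72. In wild type the log2 changes of these genes were -0.51, -0.49 and -0.58, with q of 0.032, 0.0022 and 0.00445 in the authors' deposited table, each short of the fold of 1.5. Whether the light change differs between genotypes was not tested, since that difference is built from the contrasts that chose the members. FLC had a log2 change of -0.44 in wild type and 0.07 in sfps-2, with q of 0.00305 and 0.847 in the authors' deposited table.

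The splicing sheets hold reads per library for events under an FDR of 0.05 whose share moved by at least 3 points, both set by the authors. In the dark 12 events in 6 members were listed between genotypes, so 15% of members had an event, against 3.75% of tested genes, and after red light 11 events in 6 members, also 15%, against 3.92%. Members with an event were FLC, HEI10, UNE18, UMAMIT8 and AT3G56210 in both conditions, AT5G38005 in the dark, and ACS11 after red light. Every listed intron of members, 12 in the dark and 10 after red light, was retained more in sfps-2, as were 64.8% and 69.8% of all listed introns. With 3 libraries against 3, an exact permutation test of 1 event cannot give a two-sided p under 0.1. Limma (log2 odds of retention, Benjamini-Hochberg over the sheet) gave an adjusted p under 0.05 for 10 of the 12 dark events, where 81.3% of listed events did, and for 8 of the 11 red light events, where 83.0% did. Without the second red light library of sfps-2 the latter number was 5. Spliced reads enter the retention share and come from the libraries and contrast that chose the members. The genotype results for retention, direction included, are thus not independent of that choice.

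Splice sites of the listed FLC introns are shown to identify the introns whose retention is described next. Each is read 5′ to 3′ on the minus strand of chromosome 5 (RefSeq TAIR10.1), with the first and last 2 bases of the intron in capitals.
FLC I010 5′ site: cgataaGTacgccttttcct
FLC I010 3′ site: ttattttttttgtcatctctccAGcctggt
FLC I009 5′ site: gccttgGTaatacaaacatt
FLC I009 3′ site: cttctgtccctttttcatgggcAGgatcat
FLC I008 5′ site: ggatagGTtagtactactaa
FLC I007 5′ site: aagaagGTaagttgatttcg
FLC Io001 5′ site: agccagGTaacgaaagctac

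The introns are I010 at chr5:3175662-3179154 (3493 bp), I009 at chr5:3175426-3175603 (178 bp), I008 at chr5:3175274-3175363 (90 bp), I007 at chr5:3175096-3175173 (78 bp) and Io001 at chr5:3173826-3174817 (992 bp). I010 is the long first intron of FLC, known as a seat of its regulation, and its length exceeds that of 99.97% of 136162 annotated introns, whose median is 102 bp. The score of its 5′ site ranks at 10.7% of those introns, whereas that of I007 ranks at 100%. Introns with weak and with strong sites were thus among those listed.

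In the dark libraries of wild type, FLC I009 was retained at 2.33%, 5.06% and 4.57%, and in those of sfps-2 at 18.2%, 8.22% and 16.3%, means of 3.98% ± 1.46 and 14.2% ± 5.29 (SD, n = 3). All sfps-2 libraries were above all wild type libraries. Reads that cross an end of the intron in unspliced form numbered 15, 22 and 19 at one boundary in wild type and 18, 18 and 22 in sfps-2, and 13, 22 and 19 against 38, 18 and 20 at the other. Summed, and not scaled for depth, boundary reads of sfps-2 were 122% of wild type. Spliced reads were 588, 413 and 397 in wild type and 126, 201 and 108 in sfps-2, summing to 31.1% of wild type.

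Retention was also higher in sfps-2 in the other FLC introns listed in the dark. Retention of I010 was 3.28% ± 1.71 in wild type and 7.51% ± 2.1 in sfps-2, of I007 3.03% ± 0.596 and 8.93% ± 2.55, and of I008 1.98% ± 0.399 and 6.90% ± 2.37 (SD, n = 3). The groups did not overlap in any of them, although 1 wild type library of I010, at 4.67%, lay close to the lowest sfps-2 library, at 5.06%. Summed unscaled boundary reads of these introns in sfps-2 were 74.6%, 82.1% and 101% of wild type, and spliced reads 31.8%, 26.6% and 29.0%. Io001 was retained at 4.79% ± 1.27 and 14.7% ± 5.69 in the dark and at 2.76% ± 0.556 and 7.38% ± 1.23 after red light.

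**Figure D3:**
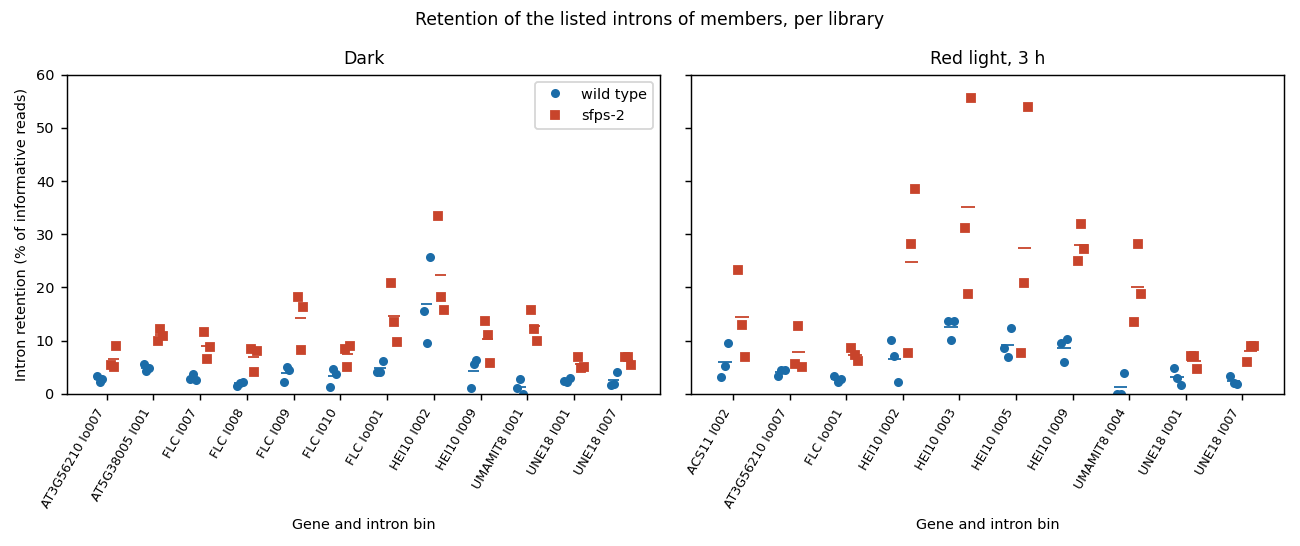
Intron retention in percent of informative junction reads for each listed intron of a member, in the dark (left) and after red light (right); each point is 1 library, circles wild type and squares sfps-2, and bars are means of 3 libraries. Group means are higher in sfps-2 for every intron, while the libraries overlap in HEI10 I002 in both conditions and spread widely in HEI10 I003 and I005 after red light.

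FLC Io001 was also the only member event listed for red light against dark in sfps-2, where 1.92% of tested genes had an event; that contrast did not choose the members. In sfps-2 its retention was 20.9%, 13.5% and 9.71% per library in the dark and 8.60%, 7.40% and 6.14% per library after red light, so the groups did not overlap (exact permutation p 0.1, the smallest possible). Unspliced reads of Io001 in the dark were 69, 47 and 26 at 1 boundary and 13, 5 and 8 at the other. After red light they were 31, 22 and 21 against 7, 1 and 10, so the share rests mostly on the first boundary. The log2 odds of retention changed by -1.04 ± 0.37 (SE; limma adjusted p 0.0452, where 70.4% of 493 listed events were under 0.05). The adjusted p was above 0.05 without dark library 1 or 2 of sfps-2 or any of its red light libraries, from 0.0756 to 0.117. No member event was listed for light in wild type, where 2.92% of tested genes had one.

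HEI10 introns rested on few reads. After red light I009 was retained at 9.49%, 5.96% and 10.4% in wild type and at 25%, 31.9% and 27.3% in sfps-2, on 56 to 71 and 15 to 16 spliced reads. I003 had 12.5% ± 2.05 and 35.2% ± 18.7, with the third sfps-2 library at 55.6% on 2 spliced reads. I002 was at 6.53% ± 3.95 and 24.8% ± 15.7 and I005 at 9.28% ± 2.78 and 27.4% ± 23.8, and in both the libraries of the 2 groups overlapped. In the dark I002 (16.9% ± 8.12 and 22.4% ± 9.51) and I009 (4.38% ± 2.82 and 10.3% ± 4.02) overlapped as well. MRD1, antisense to part of HEI10 and itself lower in sfps-2, ends at chr1:19964712. Of these introns I002 (chr1:19964532-19965107) reaches into that part. I003, I005 and I009 begin beyond it, at 19965216, 19965501 and 19966711.

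UNE18, also named ORP3A, encodes an oxysterol-binding protein, at 42.3 FPKM in wild type and 19.4 in sfps-2 in the dark and 29.4 and 13.3 after red light. Its intron I007 was retained at 2.57% ± 1.37 in wild type and 6.41% ± 0.891 in sfps-2 in the dark, and at 2.40% ± 0.763 and 8.07% ± 1.76 after red light, with no overlap of libraries. Intron I001 was at 2.55% ± 0.458 and 5.62% ± 1.2 in the dark, also without overlap, and at 3.19% ± 1.60 and 6.26% ± 1.36 after red light, where libraries overlapped. UMAMIT8, of a transporter family, had few boundary reads: I001 was at 1.34% ± 1.44 and 12.7% ± 2.92 in the dark on 9 to 25 spliced reads in sfps-2, and I004 at 1.30% ± 2.25 and 20.2% ± 7.45 after red light. ACS11 I002 after red light was at 5.98% ± 3.25 and 14.4% ± 8.31, with overlapping libraries.

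The 20 bases around a 5′ splice site are the same in AT3G56210 and AT4G04223 and not quite the same in AT5G38005. The sites are shown because the listed introns of AT3G56210 and AT5G38005 begin there, with the first 2 bases of the intron in capitals.
AT3G56210 Io007: ctgctgGTaaggttcttata
AT4G04223: ctgctgGTaaggttcttata
AT5G38005 I001: ctgctgGTaagattcttata

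The intron of AT3G56210 (chr3:20852710-20853492, minus strand) and that of AT4G04223 (chr4:2036818-2037600, plus strand) are both 783 bp long, and that of AT5G38005 (chr5:15155341-15155817, plus strand) is 477 bp. In the dark, spliced reads of AT3G56210 Io007 numbered 668, 466 and 538 in wild type and 105, 85 and 75 in sfps-2. AT5G38005 I001 had 420, 276 and 291 spliced reads in wild type and 72, 54 and 69 in sfps-2. Boundary reads were 36.7% and 45.7% of wild type, and retention was 2.77% ± 0.600 and 6.51% ± 2.24 in the first and 4.95% ± 0.644 and 11.1% ± 1.1 in the second. The exon event E004 of AT3G56210, listed after red light, was at 42.9% ± 5.37 and 46.8% ± 12.1 with overlapping libraries. How far reads of AT3G56210 and AT4G04223 were assigned to each other was not tested.

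Spliced reads give the only per-library view of the members' levels. They come from the libraries and the contrast that chose the members, so lower values in sfps-2 follow from that choice and are a description of the spread between libraries. Spliced reads were scaled by the junction reads of each library in the 381 bins with reads for all 12 libraries, members left out. Those bins were themselves listed between genotypes in both light conditions, and total depth is unknown. Over the 5 FLC introns listed in the dark, scaled reads were 2954, 2565 and 2757 for wild type and 790, 1075 and 849 for sfps-2. UNE18 had 1019, 963 and 968 scaled reads in wild type and 477, 362 and 530 in sfps-2. Over the 6 members with listed introns, the sfps-2 mean was 18.3% to 46.4% of wild type in the dark, and after red light 17% to 58.9%. Libraries of the 2 genotypes overlapped in ACS11 after red light.

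**Figure D4:**
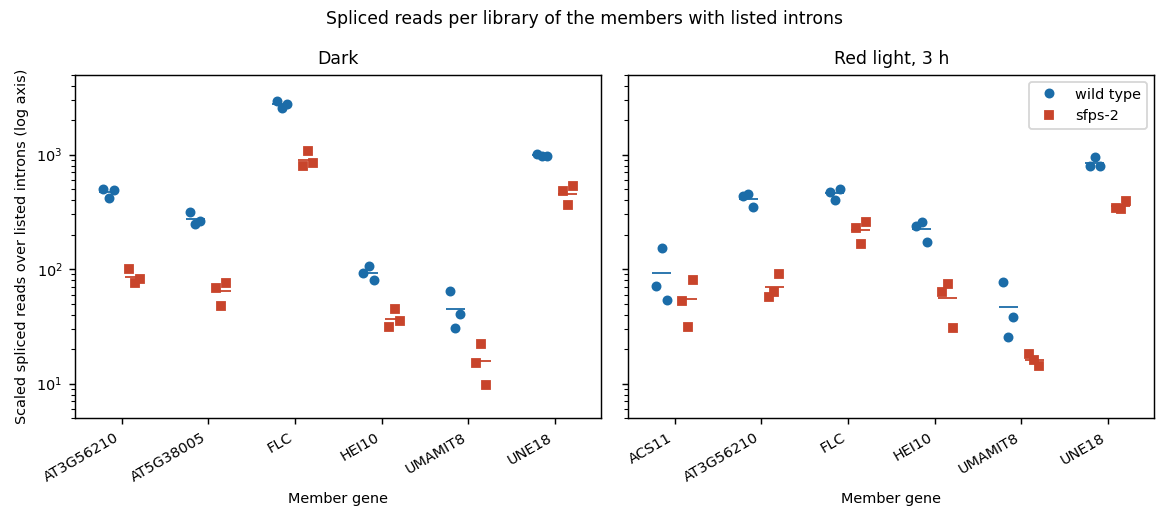
Spliced reads over the listed introns of each member, on a log axis, in the dark (left) and after red light (right). Reads are scaled to the junction reads of the library in the 381 bins with reads for all 12 libraries. Each point is 1 library, circles wild type and squares sfps-2, and bars are group means. The sfps-2 means lie below the wild type means, as the choice of members implies; after red light the libraries of ACS11 overlap (53.4 to 154 scaled reads in wild type, 31.1 to 81.0 in sfps-2).

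Promoters of the members, from 250 bases before to 50 after the annotated start, were searched on both strands for the letters of 8 motifs. The G-box CACGTG was found in 3 of 40 (7.5%), against 9.20% of 16445 promoters, and the W-box TTGACC in 6 of 40 (15%), against 14.3%. Site II (TGGGCC) was found in 4 of 40 (10%), against 20%, and the ABRE ACGTGTC in 0 of 40, against 5.37%. TATAAA was in 42.5%, against 51.2%, the telo-box AAACCCTA in 2.5%, against 5.44%, and the GCC box GCCGCC in 2.5%, against 2.66%. The FLC promoter holds a G-box and an evening element (AAAATATCT, 2.86% of promoters). Median GC content was 32% in members and in all promoters searched.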

How the data were processed

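Libraries of 12 whole-seedling samples (4 groups of 3) were grouped by the labels, and 0 per-sample columns were left unmapped. Per the submitters' processing notes, FastQC, TopHat2, Cufflinks and TAIR10 were used, and per the labels ASpli for splicing; versions are not given in the sources used here. The deposited expression tables hold the authors' FPKM per group, scaled separately in each table, with p-values and q-values as the authors' deposited results. The splicing sheets hold deposited junction read counts per library and the authors' inclusion or retention fraction per group, which were recomputed from the reads, only for events past the authors' thresholds.

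Here, log2 ratios of FPKM were computed without a pseudocount, so that low levels weigh as much as high ones. Genes were called at the authors' q under 0.05 and a fold of at least 1.5. Levels by genotype come from the genotype tables and light changes from the light tables. Retention was tested with limma 3.58.1 in R 4.3.3 on log2 odds with 0.5 added to each read number, over all events of a sheet, after a test on simulated data; the sheets were preselected by the authors, so these p-values are not independent of that choice. Sequences are from RefSeq TAIR10.1; 2966 of 2967 listed intron bins have the expected end bases there, and 32809 of 32810 genes overlap their RefSeq position. Alignments used BLAST 2.17.0 and Biopython 1.88. The exact permutation test was two-sided.

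The members and lists were chosen with earlier results of these data known. Named were the members with the 10 lowest ratios, the 6 highest levels, the largest called light changes, a splicing event, a place in a list or near the limit, within 1 Mb of SFPS, or overlapping another member; MUM4, list genes outside the members and sequence pairs were named after their values were seen. Alternatives covered the FPKM minimum, the ratio, q, fold, pseudocounts, centring, read minimum, replicate block and leaving out each library. Functional term tables, and sheets of bins that give no share, were not used here.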

Additional observations from a re-analysis of the deposited data

How the results depend on the processing

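The number of members was 51 with a minimum of 1 FPKM, 29 with 5 FPKM and 33 when q under 0.05 was required in both tables, but 163 at a ratio of 0.67 and 4 at 0.25. With q alone, red light raised 5 and lowered 11 members in wild type. With a fold of at least 2, 0 were lower in wild type and 2 in sfps-2. Shares of all tested genes were not computed at these settings, so the counts show only how the calls depend on the threshold. The median light change kept its sign under all 5 settings, from -0.29 to -0.17 in wild type and from -0.16 to -0.11 in sfps-2. In the authors' stricter list of 10 points, members had 2 of 368 events in the dark, 5 of 353 after red light and 0 of 177 for light in sfps-2. Events called by limma numbered 9 to 10 in the dark, 5 to 8 after red light and 0 to 1 for light in sfps-2 when each library was left out. The replicate numbers do not pair the samples (correlations of deviations from -0.09 to 0.08); with the replicate block 9, 7 and 1 events were called. Of 213 single event values under alternatives 183 kept direction and call, 23 lost the call, 6 gained it, and 1 reversed: AT3G56210 E004 after red light, with log2 odds from -0.035 (without sfps-2 library 1) to 0.62 (without sfps-2 library 2) when each library was left out; the cause was not tested. No library could be left out of the FPKM values. Intervals for shares were not computed; with few reads, as in HEI10 and UMAMIT8, the spread between libraries is wide.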
